A study of Homo sapiens with 8 samples.

Results

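The regions called for the transcription factor TEAD4 in human embryonic stem cells were compared between solvent-treated cells and cells in which the activin, Nodal and TGF-β receptors had been inhibited. The members are all rows of the 2 deposited TEAD4 region lists on chromosomes 1 to 22: 273415 regions from DMSO cells and 249361 from SB431542 cells, or 522776 of the 972037 regions in the 3 lists of the series. The cells were WA09, an embryonic stem cell line in wide use, kept without feeders on Matrigel in fibroblast-conditioned medium, and DNA bound by TEAD4 was collected by chromatin immunoprecipitation and sequenced (ChIP-seq). The DMSO group had DMSO for 4 h and the SB431542 group 10 µM SB431542 for 4 h. No genetic change is named for either group, and both share the line, the medium, the fixation and the TEAD4 antibody. Each group is 1 library, so replicate error is unknown throughout and no difference could be tested. The identity of the cells was not checked, since no measurement of marker genes was analysed here.

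TEAD4 is a DNA-binding protein of the TEA domain family and has little activity by itself. It recruits the coactivators YAP and TAZ, which the kinases of the Hippo pathway keep out of the nucleus when they are active. SB431542 blocks the type I receptors that phosphorylate SMAD2, the transducer of activin and Nodal signals, on which human embryonic stem cells depend to stay undifferentiated. YAP, TAZ and TEAD factors can meet SMAD complexes on chromatin, and the pair of TEAD4 lists bears on where TEAD4 is called with that signal present and after its loss.

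The lists hold positions and no score. The row order is therefore used as the rank, counted among the rows of chromosomes 1 to 22; no label states that the first rows are the strongest. A region has a partner when 1 bp or more of it is overlapped by a region of the other list. Intervals behind shares are 95% Wilson intervals and reflect only the number of regions counted. DMSO regions were 199 bp wide in the median (interquartile range 149 to 249 bp) and covered 56.8 Mb. SB431542 regions were narrower, with a median of 145 bp (122 to 180 bp), and covered 37.98 Mb. All DMSO starts lie on a 50 bp grid, against 1.98% of SB431542 starts, so a comparison between the treatments is also one between 2 ways of making a list, and these cannot be told apart. SMAD2 regions of DMSO cells (403674 on chromosomes 1 to 22) served as a comparator made with another antibody. All SMAD2 starts also lie on the 50 bp grid. This comparator thus shares treatment and grid with the DMSO TEAD4 list and neither with the SB431542 list.

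The top-ranked TEAD4 regions of DMSO cells were called again at the same places after SB431542. In full, 15631 DMSO regions had an SB431542 partner, and this share of 5.72% is the background for the counts that follow. All of the first 100 ranks had a partner (interval 96.3 to 100%). This count depends on wide regions and on the overlap rule. It was 81 of 100 where 50% of both regions had to overlap and 88 of 100 where midpoints had to lie within 100 bp. Once the widest 1% of each list had been removed it was 36 of the first 100 DMSO regions left. That removal also takes out SB431542 regions wider than 276 bp. One-to-one SB431542 partners of DMSO ranks 1 to 100 had a median width of 309 bp, so the lower count is in part built in. Of the next 900 ranks 575 did (63.9%, 60.7 to 66.96%), and of the 4000 after these 766 did (19.2%, 17.96 to 20.4%). The share was 10.1% (9.65 to 10.6%) past rank 5000 up to 20000, 6.56% (6.39 to 6.73%) from there to rank 100000 and 4.28% (4.19 to 4.38%) beyond. In narrower groups of ranks it was 9.37% (8.53 to 10.3%) for ranks 11283 to 15518 and 8.25% (7.58 to 8.99%) for ranks 15519 to 21345. Of these 2 shares only the latter is less than 1.5 times the background.

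The SMAD2 list showed how often the same TEAD4 regions met a list of another antibody. In the first 100 DMSO ranks 9 regions overlapped a SMAD2 region, and in the next 900 ranks 114 did (12.7%, 10.7 to 15.0%). This share fell slowly, to 6.79% (6.68 to 6.91%) beyond rank 100000, and over all DMSO regions it was 7.78%. The share with SB431542 TEAD4 was 5.04-fold that with SMAD2 in ranks past 100 up to 1000 and 1.66-fold past 1000 up to 5000. Past rank 5000 and up to 20000 the counts were level, with 1519 regions that met TEAD4 under SB431542 and 1521 that met SMAD2. Beyond rank 20000 more DMSO regions met SMAD2 than met TEAD4 under SB431542. The SMAD2 list covers 2.29% of the length spanned by its regions and the SB431542 list 1.36%, so equal shares do not mean equal enrichment. The 2 lists also differ in antibody, treatment and grid at once, and these cannot be told apart here.

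**Figure D1:**
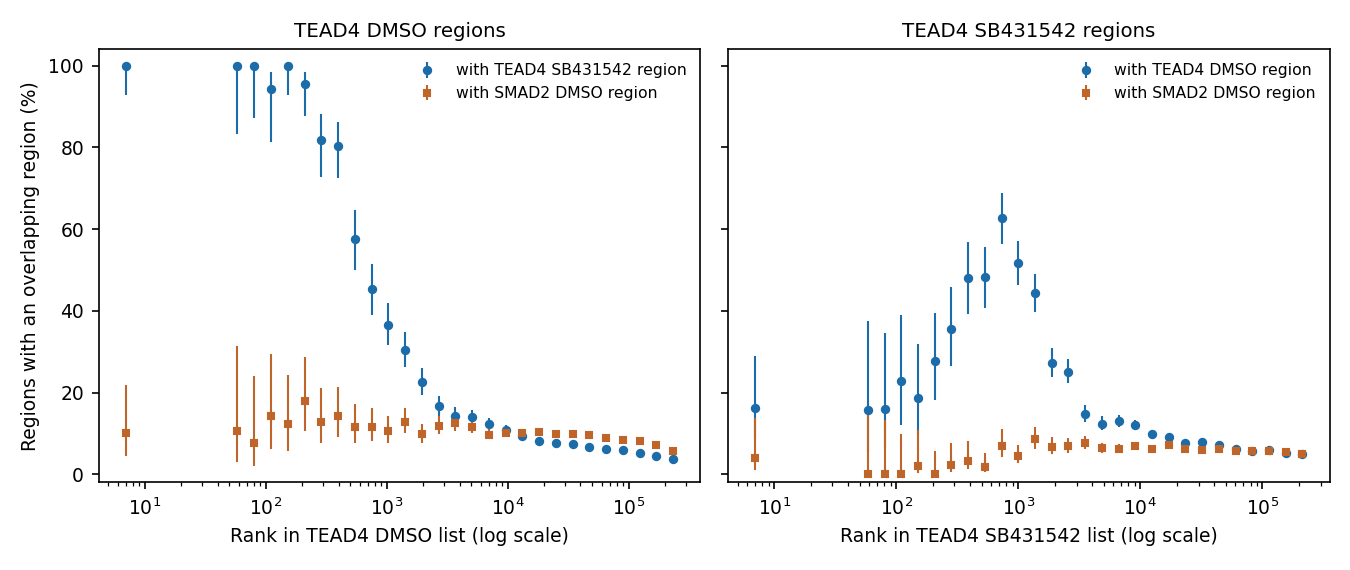
Share of TEAD4 regions (y axis, percent, with 95% Wilson intervals) that overlap a region of another list, against rank (x axis, log scale), for DMSO regions at left and SB431542 regions at right. Circles give the other TEAD4 list and squares the SMAD2 list. The DMSO share starts at 100% and meets the SMAD2 share between ranks 5000 and 20000, whereas the SB431542 share is low in the first ranks, peaks before rank 1000 and then falls.

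The first 10 DMSO ranks show how closely partners match. Rank 1, on chromosome 4 at 113573351 to 113573799 (hg19, as are all positions), held the SB431542 region at 113573387 to 113573751, of rank 393, with midpoints 6 bp apart. Rank 2, on chromosome 19 at 2462901 to 2463499, held the region at 2463009 to 2463439, of SB431542 rank 370. Rank 3, on chromosome 1 at 203954151 to 203954599, held the region at 203954245 to 203954569, of rank 273. Both of these also overlapped a SMAD2 region. In each of the 3 the narrower SB431542 region lay wholly inside the DMSO region.

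Rank 4, on chromosome 1 at 205270251 to 205270949, met the region at 205270535 to 205270989, of SB431542 rank 307, which ran past its end, with midpoints 162 bp apart. Rank 9, on chromosome 14 at 96414351 to 96415299, was the widest of the 10 at 949 bp, and its partner of rank 350 lay 241.5 bp from its midpoint. The remaining ranks of the 10 lay on chromosome 8 (rank 5), chromosome 2 (rank 6), chromosome 3 (ranks 7 and 10) and chromosome 5 (rank 8), with partners of SB431542 rank 274 to 570. The pair with the smallest sum of ranks was on chromosome 4 at 91649051 to 91649549, DMSO rank 19 and SB431542 rank 250. It was followed by DMSO rank 3 above and by a pair on chromosome 12 at 120666701 to 120667149, of DMSO rank 11 and SB431542 rank 267. A region on chromosome 6 at 132272401 to 132273099, of DMSO rank 12 and SB431542 rank 336, was also among the 10 smallest sums.

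Partners of the first 100 DMSO regions mostly lay within the first 1000 SB431542 ranks, though none lay within the first 100, and partners of lower DMSO ranks lay further down. The best partner of the first 100 DMSO ranks had a median SB431542 rank of 613 (interquartile range 458 to 975). For 76 of the 100 it lay past rank 100 and up to 1000, for 17 past 1000 and up to 5000, and for the rest further down. The worst of these 100 partner ranks was 29880. Of the partnered regions in the next 900 DMSO ranks the median partner rank was 4469, and 69 of the 575 had a partner only beyond SB431542 rank 100000. Past DMSO rank 1000 and up to 5000 the median was 32359, and beyond rank 20000 partner ranks were spread over the whole list. Of the 675 partnered regions in the first 1000 DMSO ranks, 192 (28.4%) had a partner in the first 1000 SB431542 ranks. Regions within the first 5000 ranks of both lists numbered 593 of the DMSO list (11.9%, 10.99 to 12.8%).

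Among DMSO ranks 1 to 1000, Spearman's rank correlation between the ranks of 641 one-to-one pairs was 0.51. It was 0.16 over 713 pairs past DMSO rank 1000 up to 5000 and 0.082 over 1471 pairs past 5000 up to 20000. Where both ranks were beyond 20000, the correlation over 10798 pairs was 0.0039. These are descriptions across regions of the same pair of libraries, which may share effects of width and of a depth that is not known. They carry no p-value. Rank order was therefore shared at the head of the lists, and no shared order was visible in the tail.

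**Figure D2:**
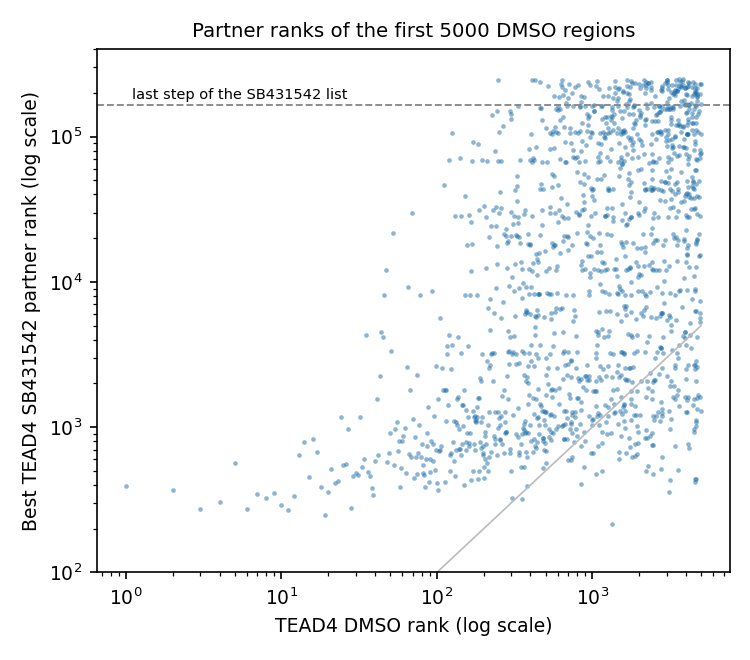
Rank of the best SB431542 partner (y axis, log scale) against DMSO rank (x axis, log scale) for the partnered regions among the first 5000 DMSO ranks; 1 point is 1 DMSO region, the solid line marks equal ranks and the dashed line the start of the last step of the SB431542 list, at rank 165235. The first 100 DMSO ranks have a median partner rank of 613, and no partner of these 100 lies past the dashed line.

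Some leading DMSO regions had only a narrow partner near the end of the SB431542 list. The partner with the worst rank among the first 1000 DMSO regions was that of DMSO rank 430, on chromosome 17 at 29401801 to 29402199. Its partner, at 29401941 to 29402040, was 100 bp wide and of SB431542 rank 247023. DMSO rank 247, on chromosome 10 at 101673551 to 101673999, had a partner of rank 245781. The 5 worst-ranked partners were all 100 to 105 bp wide, as the order of rows requires, since the SB431542 list ends in a stretch sorted by falling width. Their midpoints lay 9.5 to 107 bp from those of the DMSO regions. Presence of a partner is thus not a like place in the ranking.

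Partners matched in position more closely at the head of the list. In 96 one-to-one pairs of DMSO ranks 1 to 100 the midpoints lay a median of 28.3 bp apart (interquartile range 15.9 to 50.8 bp), and in 78 of them (81.3%, 72.3 to 87.8%) the SB431542 region lay inside the DMSO region. The median distance was 40.5 bp in the next 900 ranks, 62 bp past rank 1000 up to 5000 and 75.5 to 83.5 bp further down. Midpoints lay within 50 bp of each other in 58.9% (54.7 to 62.95%) of pairs past rank 100 up to 1000 and in 31.9% (30.6 to 33.2%) past 20000 up to 100000. The DMSO region of a pair was wider at the head (median 449 bp against 309 bp under SB431542 in ranks 1 to 100, and 199 against 152 bp beyond rank 100000). Midpoints were thus closest where regions were widest. The median signed distance was 0.5 bp over all 15271 pairs, with no shift to either side.

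**Figure D3:**
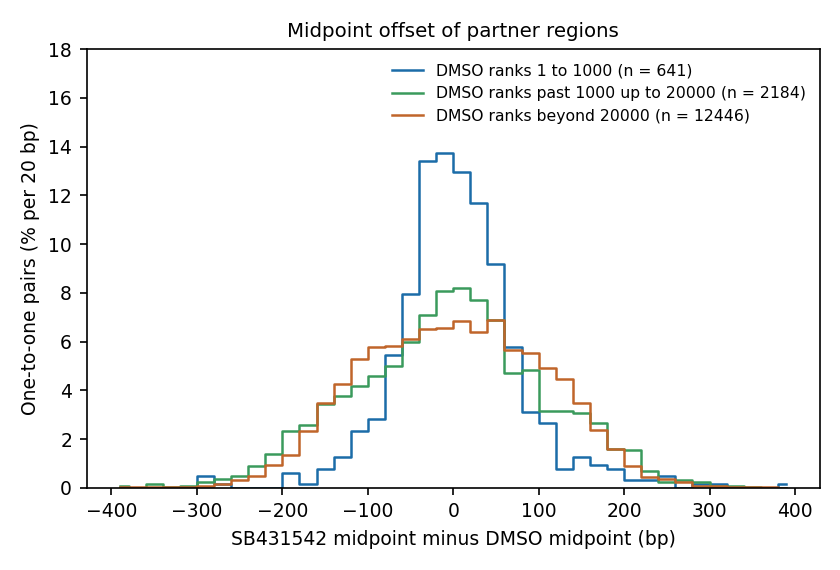
Midpoint of the SB431542 region minus that of its DMSO partner (x axis, bp) as a share of one-to-one pairs per 20 bp (y axis, percent), for 641 pairs of DMSO ranks 1 to 1000, 2184 past rank 1000 up to 20000 and 12446 beyond. The distribution is narrowest for the first 1000 ranks, and each is centred near 0.

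Width and rank both went with the share of partners. Past DMSO rank 100 and up to 1000, 203 of 261 regions wider than 399 bp had a partner (77.8%, 72.4 to 82.4%), against 91 of 180 regions of 299 bp (50.6%, 43.3 to 57.8%). Past rank 1000 and up to 5000 the shares were 38.2% (34.1 to 42.5%) and 15.0% (13.2 to 16.97%) for the same widths. Beyond rank 100000, 9.91% (8.47 to 11.6%) of regions wider than 399 bp had one. That class is open, with widths up to 1299 bp. Regions of 299 bp gave 10.4% past rank 5000 up to 20000, 7.72% from there to rank 100000 and 6.70% (6.09 to 7.36%) beyond. At 299 bp the share therefore still fell from one group of ranks to the next. The share with SMAD2 rose with width too, from 9.60% to 17.2% for these widths past rank 1000 up to 5000, so wide regions met both lists more often.

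DMSO regions without a partner numbered 325 among the first 1000 ranks, and the first of them lay past rank 100. The first was rank 106, on chromosome 7 at 33756151 to 33756599, whose nearest SB431542 region lay 10.8 kb away. It was followed by rank 109 on chromosome 12 at 18536051 to 18536449 (8.55 kb), and then by none before rank 226 on chromosome 1 at 42065601 to 42065949 (3.98 kb). Rank 261, on chromosome 21 at 17613951 to 17614349, had the nearest one of the first 10, at 0.78 kb. Rank 263, on chromosome 6 at 2866051 to 2866599, and rank 269, on chromosome 6 at 88972351 to 88972699, overlapped a SMAD2 region, and the other 8 of the 10 did not.

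For the 325 regions without a partner among the first 1000 DMSO ranks, the nearest SB431542 region was a median of 3.05 kb away (interquartile range 1.13 to 6.57 kb), and 73 of them (22.5%, 18.3 to 27.3%) had one within 1 kb. Past rank 1000 and up to 5000 the median was 3.36 kb, and beyond rank 100000 it was 3.87 kb with 17.3% within 1 kb. DMSO regions without a partner were thus no further from SB431542 regions in the first 1000 ranks than beyond. The median gap from one SB431542 region to the next was 6.80 kb, and distances of this size are common in so dense a list.

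Runs of shared leading regions lay at 3 places, taken as at least 3 regions within the first 5000 ranks of both lists with neighbours within 50 kb. On chromosome 3, 4 regions spanned 66.3 kb from 134027301 to 134093599. Their DMSO ranks were 2418, 188, 503 and 10 from left to right, and their SB431542 ranks 1778, 1587, 1280 and 289. The rightmost was the leading one in both lists. On chromosome 6, 3 regions spanned 15.5 kb from 37094051 to 37109599, of DMSO ranks 386, 16 and 214 and SB431542 ranks 916, 835 and 1043. Here the middle region led in both lists. On chromosome 16, 3 regions lay from 71043401 to 71068399, of DMSO ranks 814, 456 and 524 and SB431542 ranks 1600, 901 and 862. The leftmost was last in both lists, and the other two changed places.

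The leading SB431542 regions were for the most part not the leading DMSO regions, and the reverse held as well. Of the first 1000 ranks of either list, 192 (19.2%) had a partner in the first 1000 of the other. Over the whole SB431542 list 15898 regions had a DMSO partner, a background of 6.38%. Of the first 200 ranks 37 had one (18.5%, 13.7 to 24.5%), and the share rose to 127 of 200 (63.5%, 56.6 to 69.9%) past rank 600 up to 800. It then fell to 37.9% (34.9 to 40.9%) past rank 1000 up to 2000 and 19.1% (17.7 to 20.5%) from there to rank 5000. The first SB431542 region with a partner among the first 5000 DMSO ranks was rank 216. Of the 215 above it, 42 had a partner, of DMSO rank 7863 or worse, and 137 lay within 500 kb of an empty stretch, here 1 Mb or more in which none of the 3 lists has a region.

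Regions beside such empty stretches made up 72 of the first 100 SB431542 ranks, 357 of the next 900 and 1.02% of the list. Among the first 1000 DMSO ranks there were 6. With these regions removed and ranks renumbered, 573 of the first 1000 SB431542 regions had a DMSO partner, against 445 with them. The median partner rank of the first 100 DMSO regions then moved from 613 to 290. Among the first 100 SB431542 regions then left, however, 30 had a partner (21.9 to 39.6%). The low share at the very head thus remained without regions within 500 kb of an empty stretch. Regions without a partner at ranks 17, 20 and 27 before removal lay on chromosome 8 from 43092683 to 43096215. They counted as away from empty stretches, but rank 265 on the same chromosome, at 43825769 to 43825983, counted as beside an empty stretch. Whether the low share would remain with a wider distance was not tested.

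Among the first 1000 SB431542 ranks, 4 classes can be set side by side. The 348 regions away from empty stretches with a partner had a median width of 302 bp, a median best DMSO rank of 572, and 25 overlapped SMAD2 (7.18%), against a background of 5.54% over all SB431542 regions. The 223 away from empty stretches without a partner were as wide (305 bp), but 3 overlapped SMAD2 (1.35%). The 332 beside an empty stretch without a partner had a width of 248 bp and 6 overlapped SMAD2. The 97 beside an empty stretch with a partner had a width of 220 bp, and their best DMSO rank was a median of 141730.

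SB431542 regions without a partner at the head lay close to each other. Of the 223 away from empty stretches, 159 (71.3%, 65.0 to 76.8%) had another of the first 1000 SB431542 regions within 50 kb, against 73 of the 348 with a partner (20.98%, 17.0 to 25.6%). In the first 1000 DMSO ranks 7.30% had such a neighbour. Examples are 3 regions on chromosome 7, at 61968703 to 61969647 (rank 3), 61969757 to 61970494 (rank 23) and 61967336 to 61967701 (rank 48). The nearest DMSO region to these was 10.1 to 12.9 kb away. A region on chromosome 18 at 107956 to 109868 (rank 14) was 1913 bp wide and lay 22.7 kb from the nearest DMSO region. Further ones lay on chromosome 4 at 49151585 to 49151906 (rank 7) and at 68265055 to 68266844 (rank 19), the latter 0.30 kb from a DMSO region. Whether sequence repeated in the genome has a part in these regions was not tested. The neighbour shares above count separate rows, and the lists split regions unequally. The smallest gap between regions was 1 bp in the SB431542 list and 51 bp in the DMSO list. Neighbour shares after merging of nearby rows were not computed.

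The order of the rows limits how far ranks can be read. In both lists long runs of successive rows are in reverse genome order, so that within a run the row number follows position. In the DMSO list 31 runs of at least 1000 rows hold 58.6% of the rows, and the longest has 11104. The head is finely ordered: its first 1000 rows fall into 240 runs, of at most 61 rows. The SB431542 list is ordered in a second way. All of its 54 runs of at least 1000 rows hold regions of 1 width, and the width steps down from run to run. In 7 large steps the width falls from 198 bp to 99 or 100 bp and then jumps back, and these steps hold 80.3% of the rows. They grow from 3594 to 88436 rows, each 1.68 to 1.75 times as long as the one before. Past rank 14543, most SB431542 ranks thus give a step, a width and a position.

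**Figure D4:**
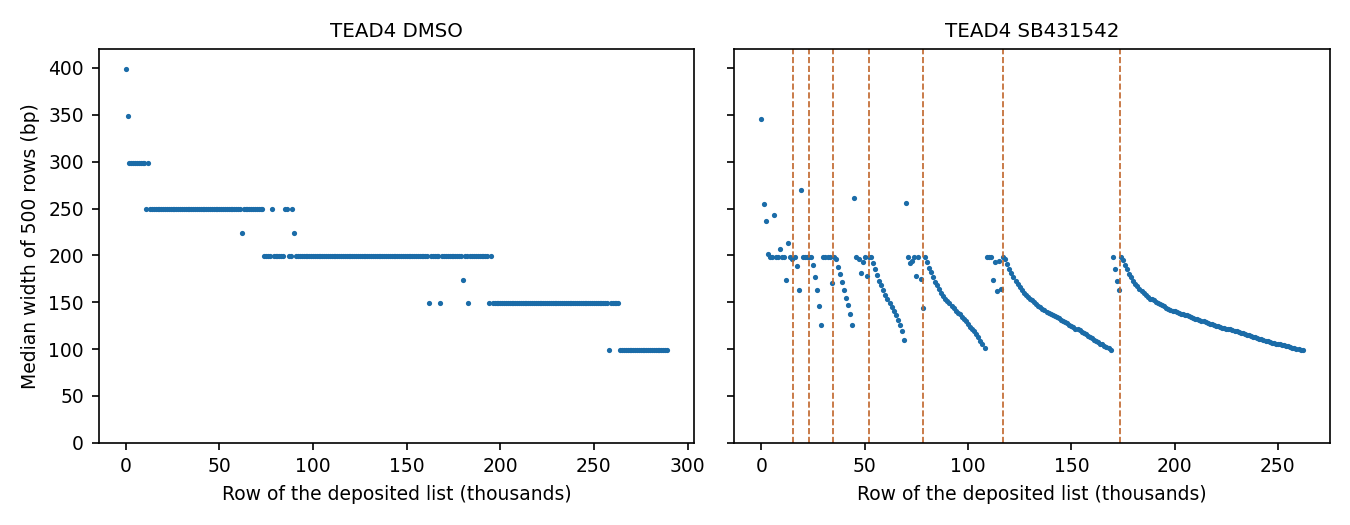
Median width of 500 successive rows (y axis, bp), sampled every 1000 rows, along the deposited DMSO list at left and SB431542 list at right (x axis, row number divided by 1000). Dashed lines mark the starts of the 7 large steps, in each of which the SB431542 width falls from 198 bp to 99 or 100 bp, whereas DMSO widths fall along the list in multiples of the 50 bp grid.

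The steps give a coarser ranking, which also goes with width, since the median width fell from 190 bp in the first large step to 127 bp in the last. The share of SB431542 regions with a DMSO partner fell from 7.34% (6.51 to 8.26%) in the first large step to 4.93% (4.79 to 5.08%) in the last, and the share with a SMAD2 region fell from 6.61% (5.82 to 7.49%) to 5.12% (4.98 to 5.27%). The intervals of the TEAD4 and SMAD2 shares overlapped in each of the 7 steps but the third, where 6.62% (6.15 to 7.12%) met DMSO TEAD4 and 5.56% (5.13 to 6.03%) met SMAD2. Among regions exactly 198 bp wide the share with a DMSO partner was 7.34% in the first step, 6.0% in the next but one and 6.45% (5.15 to 8.06%) in the last, with overlapping intervals. At this width no fall along the steps was therefore detectable, and no other single width was analysed by step.

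**Figure D5:**
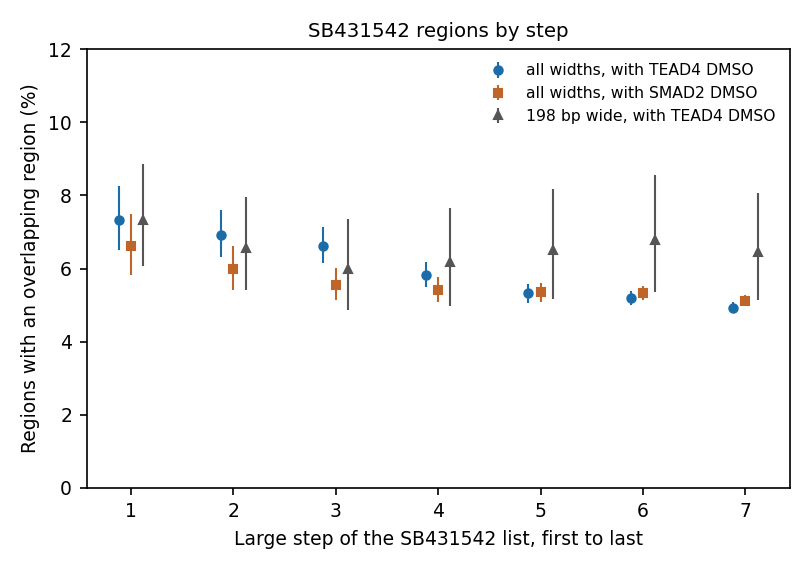
Share of SB431542 regions with an overlapping region (y axis, percent, with 95% Wilson intervals) in each of the 7 large steps of the list (x axis). Circles (DMSO TEAD4) and squares (SMAD2) lie between 4.93 and 7.34%, and triangles, for regions 198 bp wide, between 6.0 and 7.34%.

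Best partners of the first 100 DMSO regions mostly ranked above these steps, and those of lower DMSO ranks did so less often. For 98 of the first 100 DMSO ranks (93.0 to 99.4%) the best partner ranked above the first large step, a head that holds 5.83% of the SB431542 list. For the next 900 DMSO ranks this was so for 366 of 575 (63.7%, 59.6 to 67.5%), past rank 1000 up to 5000 for 307 of 766 (40.1%, 36.7 to 43.6%) and beyond rank 20000 for 10.9% (10.4 to 11.4%). The last step, with 33.7% of the list, held the best partner of none of the first 100 DMSO ranks (0 of 100, which allows up to 3.70%), of 23 among the next 900 and of 28.3% (27.5 to 29.1%) beyond rank 20000.

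The counts at the head rest in part on wide regions and on the overlap rule. Removing wide regions takes out partners as well, which lowers these counts in part by construction. Without the widest 1% of each list, which takes out 136 of the first 1000 DMSO ranks and 557 of the first 1000 SB431542 ranks, 413 of the first 1000 DMSO regions had a partner in place of 675, and 288 regions lay in the first 5000 ranks of both lists in place of 593. With an overlap of 50% of both regions, 441 of the first 1000 had a partner and 2.29% of all DMSO regions did.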

How the data were processed

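TEAD4 and SMAD2 ChIP-seq region lists were analysed for 3 of the 8 groups named in the labels, each with 1 library; the other 5 groups were not analysed here. The deposited lists hold a chromosome, start and end per region; the submitters' processing notes name hg19. For read depth, aligner, peak caller, threshold and control: not given in the sources used here. Lists were tied to samples by antibody target and treatment in their names.

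Rows outside chromosomes 1 to 22 were left out (15965 for DMSO, 12748 for SB431542). Printed starts are raised by 1 bp; widths are end minus start. Overlaps, nearest distances and 95% Wilson intervals were computed with Python 3.11.15, NumPy 2.4.6, pandas 2.3.3 and SciPy 1.17.1, figures with matplotlib 3.10.9. Overlap, distance and row-order functions were tested on simulated data. A run is a maximal stretch of rows in reverse genome order. A step is a maximal stretch in which width never rises and rows of 1 width are in that order; both were defined after seeing the rows. Empty stretches (24) are at least 1 Mb without a region of any list.

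Regions and lists were chosen with earlier results of these data known. Named regions are the first 10 DMSO ranks, the 10 smallest rank sums, the first 10 without a partner in each list (for SB431542, away from empty stretches), the 5 most unequal partner pairs and the runs of shared regions, of which the text gives examples. Fixed gene lists, promoters and motifs need an hg19 annotation or sequence and were not analysed here. The alternatives tried are given in the closing section.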

Additional observations from a re-analysis of the deposited data

How the results depend on the processing

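Values are given for the share of DMSO regions with a partner, the share of SB431542 regions with a partner, and the shares of the first 1000 DMSO and first 1000 SB431542 ranks. Requiring 50% of both regions gave 2.29, 2.51, 44.1 and 28.8%, and midpoints within 100 bp gave 3.62, 3.98, 58.1 and 30.8%. Removing the widest 1% gave 5.36, 5.96, 41.3 and 32.5%, and the first 50% of each list gave 4.64, 5.19, 62.7 and 34.7%. With 200 bp around each midpoint the first, second and last were 6.08, 6.74 and 40.1%. Cutting the longer list to the length of the shorter moved the first and second to 5.94 and 6.05%. The share of the first 1000 SB431542 ranks was 57.3% without regions beside empty stretches, 54.9% with regions within 200 bp merged and 40.7% with all chromosomes. Regions in the first 5000 ranks of both lists fell to 288 without the widest 1%. The median partner rank of the first 100 DMSO regions was 1573.5 without the widest 1%, where it rests on the 36 of 100 with a partner, 290 without regions beside empty stretches, 454 with merging and 712.5 with all chromosomes. The rank correlation over all one-to-one pairs, 0.18 as analysed, was 0.42 with 50% of both regions, 0.26 with midpoints, 0.12 without the widest 1% and 0.33 in the first 50% of each list. Requiring 50% of both regions lowers a share by construction. Removals renumber ranks and can take out the partners of regions that stay. Other causes were not tested. The other 39 of 72 values moved by less than their interval or, for the count in both heads, by less than 1.5 times. Among them, mean ranks for the rows of a run or step left the rank correlation at 0.19. All chromosomes and mean ranks were chosen after seeing the data. No paired analysis was possible because the groups hold single libraries, which also left none to leave out. Motif alternatives were not run, for want of an hg19 sequence. Depth and threshold are unknown, so a missing region was not detectable at a depth that cannot be stated.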

Other observations

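TEAD4 regions with a partner were found on each of the 22 autosomes. The share of DMSO regions with an SB431542 partner lay between 5.10% (4.68 to 5.55%) on chromosome 13 and 7.48% (6.56 to 8.51%) on chromosome 22. In the other direction it lay between 6.06% on chromosomes 12 and 18 and 6.85% (6.06 to 7.74%) on chromosome 21. Among the first 5000 DMSO ranks the share was highest on chromosome 19, where 41 of 111 regions had a partner (36.9%, 28.5 to 46.2%), and lowest on chromosome 14, where 31 of 141 did (21.99%, 15.9 to 29.5%). The share over all of these 5000 ranks, 28.82%, lies inside both intervals, so neither extreme can be told from it.

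The heads of the lists were spread differently over the chromosomes. Of the first 1000 SB431542 ranks the most, 123, lay on chromosome 2, 44 of them beside an empty stretch and 79 away from one. On chromosome 10 lay 119, 98 of them beside an empty stretch, and on chromosome 16 lay 106, 62 of them beside one. Of the first 1000 DMSO ranks 80, 56 and 31 lay on chromosomes 2, 10 and 16. In full, these chromosomes held 24714, 12986 and 7501 of the 273415 DMSO regions. They held 22011, 12710 and 7738 of the 249361 SB431542 regions. Chromosome 1 held 108 of the first 1000 DMSO ranks and 60 of the first 1000 SB431542 ranks, and 22572 and 21890 regions of the full lists.

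In 2733 windows of 1 Mb, the number of DMSO TEAD4 regions followed that of SB431542 TEAD4 regions weakly (Spearman's rank correlation 0.16, Pearson's r 0.37). SB431542 TEAD4 followed SMAD2 of DMSO cells with a rank correlation of 0.40 (r 0.52), and DMSO TEAD4 followed SMAD2 with 0.22 (r 0.59). With windows near empty stretches left out, the rank correlation was 0.13, 0.39 and 0.18 over 2669 windows in the same order. These are descriptions across windows of single libraries, which share mappable length and base composition. The DMSO TEAD4 and SMAD2 lists also share treatment and the 50 bp grid, and the 2 TEAD4 lists share neither. The SB431542 TEAD4 and SMAD2 lists share neither of these nor the antibody. Over all windows they nevertheless had the highest rank correlation (0.40), while r was highest for DMSO TEAD4 with SMAD2 (0.59). Region density over 1 Mb was thus no more alike for the same antibody under both treatments than for different antibodies. Antibody cannot be told apart here from treatment and the way a list was made.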
